A study of Rattus norvegicus with 24 samples.

Results

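The cytosolic ribosomal proteins were taken as the probes with a single gene symbol that starts with Rpl or Rps and a digit, leaving out symbols with the letter k such as those of the S6 kinases. These were 53 of 31099 probes and stand for 48 genes, 33 of the large subunit (Rpl) and 15 of the small subunit (Rps) by name. RNA of microvessels isolated from rat brain cortex was hybridised to 24 arrays, 8 in each of 3 groups. HAL animals had a portocaval anastomosis (PCA), a shunt that sends portal blood around the liver, and hepatic artery ligation after another 24 h. HEP animals had the same shunt and, after another 24 h, total hepatectomy. Sham animals went through a fictitious operation in 2 steps, and all animals were decapitated 8 to 12 h after their last operation. Both models of acute liver failure thus carry the anastomosis, and Sham carries neither operation, so the anastomosis and the second step cannot be told apart in a comparison with Sham. The labels give neither strain nor age, and whether the 8 arrays of a group are 8 different rats is not stated, so every p-value speaks of the spread among arrays.

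Each ribosome is built from a small subunit, which reads the messenger RNA, and a large subunit, which joins the amino acids, and cells make the proteins of both in roughly matched amounts. Their messenger RNAs are among the most abundant of a cell and begin with a run of pyrimidines, the terminal oligopyrimidine (TOP) element, through which the mTOR pathway and the protein Larp1 set how actively they are translated. In brain microvessels these transcripts come from endothelium, from pericytes and smooth muscle, and from the astrocyte endfeet and other cells that stay attached. In such bulk RNA fewer cells of a type and less RNA per cell cannot be told apart.

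The start regions are shown because TOP elements are known at the start of these messenger RNAs, and long pyrimidine runs were more frequent near the annotated starts of members than of other genes. RefSeq start regions of build GRCr8 were matched for 39 of the 48 genes. In the lines below, each sequence runs from 30 bases before the annotated start through the first 20 transcribed bases on the strand of the gene, and capitals mark the longest pyrimidine run near the start. Rpl35 (chr3:43165902-43165951, minus strand) and Rps3 (chr1:163195757-163195806, minus) followed the other members most closely across arrays. Rpl13a (chr1:104748894-104748943, minus) had the largest difference between the liver failure models among the 18 members whose readings clustered enough to be compared. Rps6 (chr5:106420521-106420570, minus) and Rpl35a (chr11:81235002-81235051, minus) had the largest differences from Sham in HEP among these 18. Rps23 (chr2:23814487-23814536, plus) varied least of them. Rpl3 (chr7:113507971-113508020, minus) and the paralog Rps27l (chr8:76443628-76443677, plus) are shown because they lack a long run.
Rpl35: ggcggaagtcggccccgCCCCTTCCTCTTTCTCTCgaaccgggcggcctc
Rps3: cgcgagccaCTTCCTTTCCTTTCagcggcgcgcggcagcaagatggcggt
Rpl13a: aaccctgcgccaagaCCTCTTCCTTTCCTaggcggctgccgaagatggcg
Rps6: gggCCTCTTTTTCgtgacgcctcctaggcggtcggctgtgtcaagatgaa
Rpl35a: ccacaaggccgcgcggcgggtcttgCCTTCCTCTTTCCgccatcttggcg
Rps23: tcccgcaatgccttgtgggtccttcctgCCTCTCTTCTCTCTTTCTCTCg
Rpl3: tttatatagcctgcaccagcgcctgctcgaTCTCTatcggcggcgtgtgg
Rps27l: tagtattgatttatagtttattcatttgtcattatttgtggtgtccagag
A run of at least 8 pyrimidines (C or T, on the strand of the gene) within 40 bases on either side of the start was found in 30 of 39 member regions (76.9%), against 30.2% of all 33469 regions of the table. The longest run had a median of 11 bases in members and of 6 in all regions. In the 6 lines with the long runs the run spans 21 bases in Rps23, 18 in Rpl35, 14 in Rps3 and Rpl13a, 13 in Rpl35a and 10 in Rps6. With the first transcribed base as 0, the runs begin at -2 in Rps23, -5 in Rpl35a and -13 in Rpl35 and reach into the transcript. Those of Rpl13a (from -15), Rps3 (from -21) and Rps6 (from -27) end before the annotated start, so at these annotated starts they are not the first bases of the transcript. The longest run of Rps27l spans 4 bases and begins beyond the letters shown, so that line has no capitals. Over the whole 300 bases of each region and both strands, CTTCCTTT was found in 23.1% of member regions against 3.38% of all, and CTTCCG in 46.2% against 16.6%. CTTTCC was found in 43.6% against 26.4%, and the TATA box letters TATAAA in 12.8% against 14.2%. CTTTCC and CTTCCTTT can overlap each other and the runs. These are matches of letters and not sites of a factor.

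Of each log2 signal, the table used here keeps the decimals and lacks the integer part. A log2 signal below 10 has 9 decimals and one of 10 or above has 8, so the number of digits separates these levels, except that a first or last decimal of 0 is lost and shortens the cell. By this count 31 of the 53 probes (58.5%), 1 for each of 31 genes, had no cell of 9 digits and were taken to lie at 10 or above on all 24 arrays. The same held for 6.22% of all probes of the array. Probes differ in affinity, so this is a level of signal and not of molecules.

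The level class differed between the standard proteins and their copies. Of the 44 probes with standard symbols 31 lay at 10 or above, 23 of the large subunit and 8 of the small one. None of the 9 probes of paralogs and pseudogene loci did, and all 9 lay below 10: Rpl3l, a form of Rpl3 known from striated muscle, Rpl7l1 with 2 probes, Rpl26l1, Rpl39l1, Rps27l, Rps4y2, Rpl37-ps2 and Rps4x-ps1. This grouping was made partly after the values were seen and was not tested. Their cells of 9 digits numbered 17 to 23 of 24. Probes of such copies and of their parent genes can share sequence, so signal of a near-identical transcript cannot be told apart from their own.

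Among standard symbols 11 probes lay below 10. For Rpl24, Rpl28, Rpl30, Rpl39, Rps13, Rps15 and Rps15a, the single probe was one of them. Rps24 had both of its probes there. Rpl3 and Rpl7 each had 1 probe at 10 or above and another below 10 with 22 cells of 9 digits, so the probes of these genes differed in signal. Rpl14, a large subunit protein, was the only gene near 10. Its first probe had 9-digit cells on 3 Sham, 5 HAL and 5 HEP arrays, and its second probe on 2 Sham, 3 HAL and 0 HEP arrays. These counts were not tested. Where 9 digits were taken to follow an integer of 9, and 8 digits an integer of 10, the median of the second probe was 10.24 in Sham (8 arrays read), 10.04 in HAL (6) and 10.24 in HEP (7). Its lowest and highest readings were 9.97 and 10.76 in Sham, 9.92 and 10.45 in HAL, and 10.16 and 10.76 in HEP, so the groups overlapped. The median of the first probe was 10.14 in Sham (6 arrays read), 9.95 in HAL (7) and 9.92 in HEP (7), so by this reading only this probe had a lower median in HEP than in Sham. Its readings ran from 9.13 to 10.88 in Sham, 9.40 to 10.89 in HAL and 9.85 to 10.92 in HEP. For either probe, a cell of 8 digits can also be one below 10 that lost a 0. Such a cell is read too high, so the order of these medians is uncertain.

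**Figure D1:**
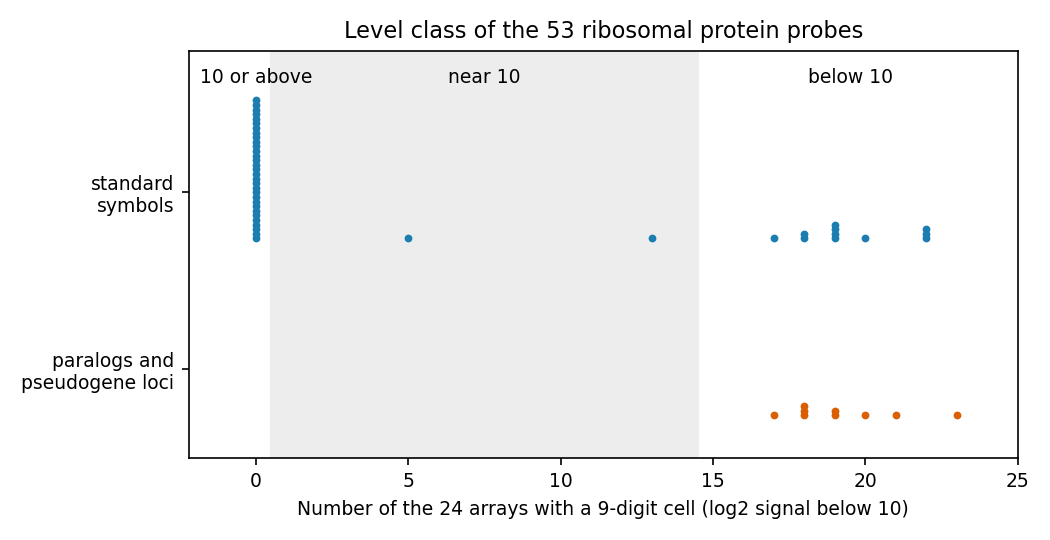
Each point is 1 of the 53 ribosomal protein probes, placed by the number of the 24 arrays on which its cell had 9 digits (log2 signal below 10), with standard symbols above paralogs and pseudogene loci. The 31 probes at 0 all have standard symbols, and the 9 probes of copies lie at 17 or above.

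For the probes at 10 or above, differences between arrays were read from the decimals. Each decimal was taken as a position within 1 log2 unit and expressed relative to the probe's own mean position over the 24 arrays, giving a relative reading between -0.5 and 0.5 log2 units. A change of about 1 log2 unit, that is a doubling or halving of the signal, is therefore invisible, and a change beyond 0.5 appears at a wrong size and sign. A probe was tested where its 24 positions clustered, measured by a resultant length (1 for identical positions, 0 for an even spread) of at least 0.6. Of 1933 probes at 10 or above 582 met this, among them 18 of the 31 members: Rpl3, Rpl4, Rpl7, Rpl7a, Rpl13a, Rpl18, Rpl23, Rpl27, Rpl35, Rpl35a, Rpl37a, Rpl41, Rps3, Rps3a, Rps6, Rps16, Rps23 and Rps28. Even without noise a shift of 1 group by 0.35 units lowers the resultant length to 0.54, so probes that passed had to have small differences, and large changes of other probes were removed. For the members this was examined with the resultant length taken within groups instead, which a shift between groups does not lower, and the same 18 members passed. The 13 members not read by this limit were Rpl5, Rpl6, Rpl11, Rpl12, Rpl19, Rpl21, Rpl22, Rpl23a, Rpl26, Rpl27a, Rpl34, Rps9 and Rps29.

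At 10 or above lay 6 of 7 endothelial markers on the array, as did 3 of 6 pericyte, 2 of 4 smooth muscle, 4 of 5 perivascular fibroblast and 3 of 6 astrocyte markers. Of the neuron (7), microglia (5) and leukocyte (4) markers on the array none did, while 1 of 4 oligodendrocyte and 1 of 2 red cell markers did. Only 4 of these markers could be read for differences, so whether cell makeup moved with the ribosomal protein readings was not tested.

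The ribosomal protein transcripts varied together from array to array, also among arrays of the same group. The median reading of the 18 members ran from -0.20 on Sham array 3 to 0.14 on HEP array 3, and these numbers only name arrays. Which arrays were extreme depended on the limit on clustering. Over all 31 members, with no such limit, the median ran from -0.13 on HEP array 2 to 0.13 on Sham array 6. On Sham array 3 it was then -0.030, with 12 of 31 members above their mean. The counts that follow are again of the 18 members. On Sham array 7 all 18 members lay above their own mean, and on HEP array 3 15 did. On Sham array 2 and HEP array 2 only 1 of 18 did, and on Sham arrays 1 and 3 only 2 did.

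The spread of the median over the 18 members was widest among the controls. The lowest, median and highest of the 8 array values were -0.20, 0.012 and 0.12 in Sham, -0.050, -0.012 and 0.069 in HAL, and -0.13, 0.012 and 0.14 in HEP. The 3 groups overlapped over the whole range of HAL. The mean was -0.017 ± 0.107 in Sham, -0.0037 ± 0.038 in HAL and 0.020 ± 0.082 in HEP (SD, n = 8 each), so the means lay closer together than the arrays of a group. The median over all 582 probes ran only from -0.074 to 0.044. After taking it away from each array, the ribosomal protein median still had an SD of 0.083 in Sham, 0.035 in HAL and 0.063 in HEP, and these SDs were not compared by a test.

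**Figure D2:**
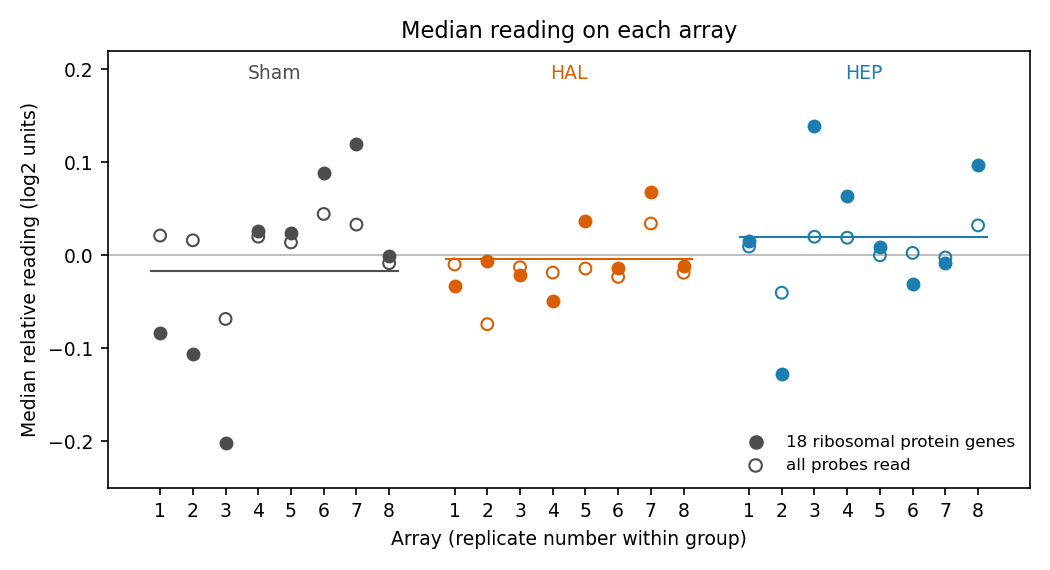
Median relative reading (log2 units) of the 18 ribosomal protein genes (filled) and of all 582 probes read (open) on each of the 24 arrays, by group, with the group mean of the filled points as a line. The filled points spread from -0.20 to 0.14 and the open ones from -0.074 to 0.044, while the 3 lines lie between -0.017 and 0.020.

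Pairs of members followed each other more closely than pairs of other probes did. After taking away group means, the median correlation of the 153 member pairs over the 24 arrays was 0.44, and 93.5% of the pairs were positive. Over all pairs of the 582 probes the median was 0.052 and 57.2% were positive. These are descriptions, since all pairs share the same arrays and their normalisation. The median was 0.44 without Sham array 3, 0.36 with each array centred on its median, and 0.32 without the Sham arrays. Over all 31 members at 10 or above, with no limit on clustering, it was 0.26, against 0.016 for all 1933 probes.

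Members differed in how far they took part. Rpl35, a protein at the exit of the large subunit's peptide tunnel, correlated with the median of the other members at 0.86, and Rps3, which lies where messenger RNA enters the small subunit, at 0.83. Of the 24 cells of Rpl35, 13 were short and were placed nearest its mean position, so its readings are partly assigned. Rpl37a followed at 0.74, Rpl7 at 0.71 and Rpl18 at 0.70. The lowest were Rpl13a at 0.42, Rpl35a at 0.36 and Rpl27 at 0.068, each over 24 arrays. Rpl27 held 2 of the 6 member readings beyond 0.4 units from the mean, where a reading can belong a whole unit away. Its reading on HAL array 5 was -0.50 and would be 0.50 if read a unit higher, and on HEP array 1 it was 0.48 or else -0.52. Of the other 4, 1 each lay in Rps6, Rps28, Rpl4 and Rpl35.

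**Figure D3:**
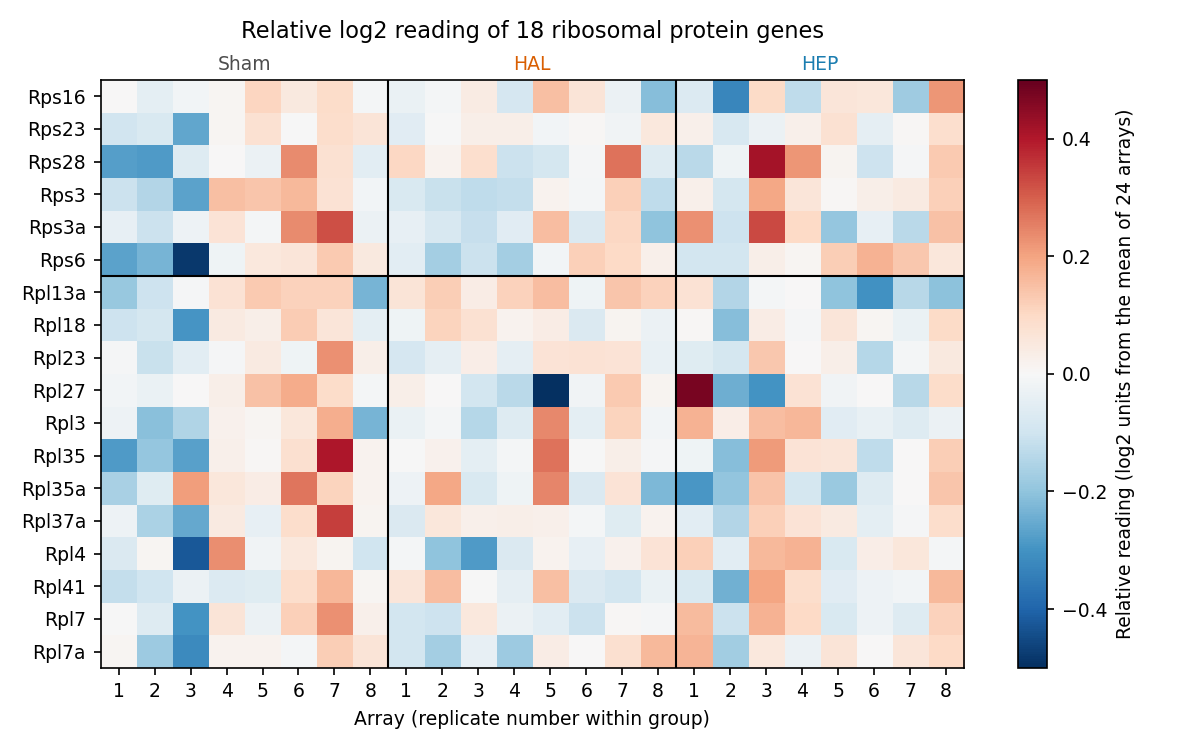
Relative reading (log2 units, colour) of the 18 ribosomal protein genes (rows, small subunit above large) on the 24 arrays (columns, by group). Sham array 7 is above the mean in all 18 rows, and Sham arrays 1 to 3 and HEP array 2 are below it in nearly all.

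The members read were those whose positions clustered, so their spread was limited by that choice. Of these, Rps23, which lies at the decoding centre of the small subunit, had the lowest SD, 0.076, with readings from -0.26 to 0.090. Rpl23 followed with an SD of 0.081 and Rpl18 with 0.097. Of the 24 cells of Rpl23, 10 were short and were placed nearest its mean position, which keeps its SD low. Rpl27 had the highest, 0.18. The median SD was 0.12 for the 18 members and 0.14 for the 582 probes.

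In HAL against Sham, ribosomal protein transcripts did not pass the test in either direction. In limma with Benjamini-Hochberg adjustment over 582 probes, 28 probes passed an adjusted p of 0.05, which is 4.81% of those tested, 8 higher and 20 lower (9 higher and 6 lower with each array centred on its median). None of the 18 members was among them, and none had an unadjusted p under 0.05, against 120 of all 582 probes. The median difference of the members was 0.0054 log2 units and that of all probes -0.032. A positive difference was seen for 10 members and a negative one for 8. The 95% intervals of the 18 differences, with the readings taken as described, lay within -0.28 and 0.23 log2 units. They do not cover readings that belong a whole unit away.

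Single members lay on both sides of Sham in HAL. Rpl13a, a large subunit protein also known as part of a complex that silences inflammatory messenger RNAs, had the highest difference, 0.10 (95% interval -0.022 to 0.23, adjusted p = 0.363 in limma). Rps28 followed at 0.075, Rpl35 at 0.059 and Rps6 at 0.055. Rpl18 (0.051), Rpl3 (0.047), Rpl41 (0.029) and Rps23 (0.027) were next. On the other side Rpl27 had the lowest difference, -0.12 (-0.28 to 0.036, adjusted p = 0.391), and it became 0.0045 with the reading of HAL array 5 set a unit higher. Rps3a (-0.090), Rps3 (-0.053), Rpl35a (-0.049), Rpl7 (-0.048) and Rps16 (-0.038) had smaller negative differences, and Rpl4 was at -0.023 and Rpl23 at -0.0097. A whole-unit change of 1 Sham reading would bring Rpl35 to 0.18 (array 7) and Rpl4 to -0.15 (array 3), each then the extreme on its side, and that of Sham array 3 in Rps6 would bring it to -0.070. The SE of these differences was 0.055 to 0.078, so most were smaller than their own error.

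In HEP against Sham the members again did not pass. None of 582 probes passed in limma (0% of those tested), 83 had an unadjusted p under 0.05, and no member was among these. The median difference was 0.029 log2 units in members and -0.0069 in all probes, and 12 of 18 members were positive. The intervals lay within -0.27 and 0.27. Because HAL and HEP were set against the same Sham arrays, their differences are not independent. Sham arrays 1 to 3, with their low medians over the 18 members, enter both.

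Rps6, the small subunit protein that S6 kinases phosphorylate, had the highest difference of the 18 in HEP. Its lowest, median and highest readings were -0.48, 0.014 and 0.13 in Sham, -0.17, -0.033 and 0.12 in HAL, and -0.093, 0.043 and 0.17 in HEP. The groups overlapped, and 3 Sham arrays (1, 2 and 3) lay below every HEP array. The difference from Sham was 0.13 in HEP (95% interval -0.0081 to 0.27, adjusted p = 0.374 in limma) and 0.055 in HAL. With the lowest Sham reading, on array 3, set a unit higher, these became 0.0070 and -0.070. Rps28, a small protein near the exit of messenger RNA, had the next highest difference, 0.11, and it became -0.012 with 1 HEP reading of 0.42 set a unit lower.

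Rpl4 (0.090), Rpl3 (0.086), Rpl7a (0.066), Rps3 (0.050), Rpl35 (0.040) and Rps23 (0.032) also had positive differences in HEP. A whole-unit change of 1 Sham reading would bring Rpl4 to -0.035 (array 3) and Rpl35 to 0.17 (array 7). Rpl35a, a large subunit protein that is mutated in some Diamond-Blackfan anaemia, had the lowest. Its readings ran from -0.16 over a median of 0.045 to 0.27 in Sham, from -0.22 over -0.025 to 0.25 in HAL, and from -0.29 over -0.076 to 0.14 in HEP. The groups overlapped over most of their range, and the difference was -0.13 (95% interval -0.27 to 0.013, adjusted p = 0.396). Of the 24 cells of Rpl35a, 10 were short and were placed nearest its mean position, so these readings are partly assigned. Rpl13a was at -0.10 (-0.23 to 0.021, adjusted p = 0.463), Rpl27 and Rps16 each at -0.057, Rpl23 at -0.024 and Rps3a at -0.011. With the reading of HEP array 1 set a unit lower, Rpl27 came to -0.18.

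**Figure D4:**
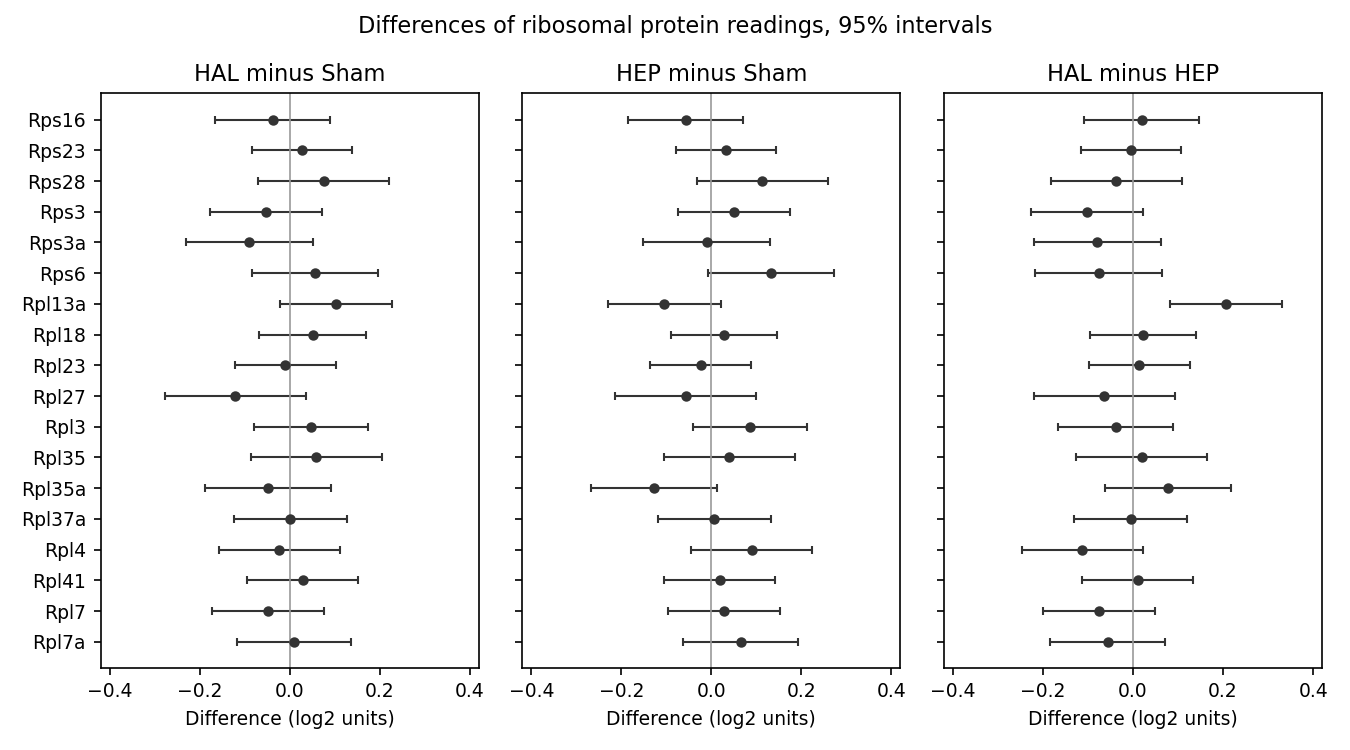
Difference of mean relative readings (log2 units, points) with 95% intervals from limma (bars) for the 18 ribosomal protein genes in 3 comparisons of 8 against 8 arrays. All intervals include 0 except that of Rpl13a in HAL minus HEP (0.082 to 0.33).

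With the main settings, Rpl13a alone among the 18 members read had an unadjusted p under 0.05, in HAL against HEP, and it did not pass the adjusted threshold. Its readings were -0.23 at the lowest, 0.033 at the median and 0.13 at the highest in Sham, -0.023, 0.12 and 0.15 in HAL, and -0.30, -0.14 and 0.070 in HEP. On 7 of 8 HAL arrays and 2 of 8 HEP arrays it lay above the gene's mean, with some overlap, and Sham spanned most of both ranges. HAL exceeded HEP by 0.21 log2 units (SE 0.062, 95% interval 0.082 to 0.33), with an adjusted p of 0.142 in limma, which misses the threshold. With array weights, which give arrays that deviate from the fit less influence, it passed at an adjusted p of 0.0314. Over the 10 settings in which this probe was read, the adjusted p ran from 0.0314 to 0.425, and over the 16 fits that each left out 1 array from 0.0934 to 0.269. The difference stayed between 0.18 and 0.23 throughout these fits. Against Sham, over the same 10 settings, it ran from 0.068 to 0.19 in HAL and from -0.15 to -0.033 in HEP, with adjusted p of 0.0956 or more in limma. With array weights 3 of the 18 members had an unadjusted p under 0.05 in HEP against Sham, against 119 of all 582 probes. Of the members 0 passed there, and of all probes 34 did.

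The other members did not separate the models. Of 582 probes 1 passed in HAL against HEP (0.172% of those tested), 65 had an unadjusted p under 0.05, and 1 of these was a member. Of the 18 members 11 were lower in HAL than in HEP and the median difference was -0.021, against -0.027 for all probes. Rpl4 was at -0.11 (-0.25 to 0.021) and Rps3 at -0.10 (-0.23 to 0.022), the lowest of them.

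**Figure D5:**
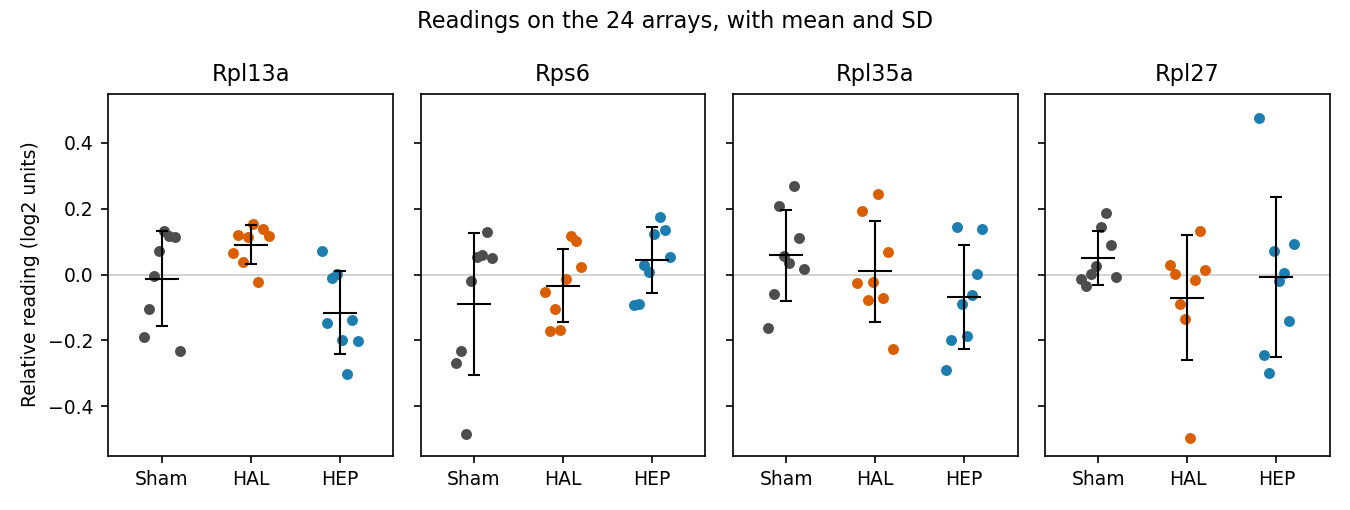
Relative reading (log2 units) of Rpl13a, Rps6, Rpl35a and Rpl27 on each array (points) with the mean and SD of the 8 arrays of each group (line and bars). Rpl13a lies at -0.023 or above on all HAL arrays, and single points near the limits of -0.5 and 0.5 (Rps6 in Sham, Rpl27 in HAL and HEP) can belong a whole unit away.

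The count of members that passed was also 0 under other limits on clustering. With clustering judged within groups, 20.4% of 834 probes passed in HAL, 13.9% in HEP and 3.24% between HAL and HEP, and 0 of the 18 members did in any of them. These 18 had also passed the limit over all arrays, which keeps differences small. The probes added can differ more between groups, so these shares are no measure for the 18 members. In that reading the smallest adjusted p of a member was 0.276 in HAL, 0.102 in HEP and 0.0654 in HAL against HEP. With no limit on clustering all 31 members at 10 or above were tested among 1933 probes, of which 1.60% passed in HAL, 0.517% in HEP and 0% in HAL against HEP. None of the 31 members passed, and their intervals lay within -0.30 and 0.37 in HAL and -0.39 and 0.44 in HEP.

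The 13 members that clustered too loosely spread over most of the unit, so their differences carry SEs of 0.089 to 0.12. Rpl26, whose positions were nearly even (resultant length 0.14), had the largest differences, 0.12 in HAL and 0.19 in HEP. Rpl21, with a resultant length of 0.37, was at -0.078 and -0.18, and Rpl5, which with Rpl11 and 5S RNA can hold back Mdm2, at -0.059 and -0.16. Rps9 lay at 0.11 in HAL and 0.082 in HEP, and Rpl19 at -0.10 and -0.028. Readings of Rpl21 ran from -0.50 to 0.49 in Sham alone, so a mean position has little meaning there.

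Below 10, 5 member probes clustered tightly enough to be compared by their decimals in a fit over 10009 probes, of which 0% passed in any comparison. In HAL against Sham 1345 of these probes had an unadjusted p under 0.05, 2 of them members. Rpl39l1, a copy of the small large-subunit protein Rpl39, had lowest, median and highest readings of -0.16, -0.041 and 0.011 in Sham, -0.17, 0.11 and 0.47 in HAL, and -0.10, -0.021 and 0.15 in HEP. HAL arrays covered the whole range of Sham and reached beyond it, with a difference of 0.17 (95% interval 0.039 to 0.29, adjusted p = 0.239 in limma). The highest HAL reading of Rpl39l1, 0.47, can belong a whole unit lower, which would lower this difference, and the interval does not cover that. Rpl39 itself was at 0.14 in HAL (0.012 to 0.27, adjusted p = 0.330) and 0.056 in HEP.

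With the readings as taken, the remaining probes below 10 that were compared had smaller differences in HAL than Rpl39l1 and Rpl39. Rpl30 was at 0.10 in both HAL and HEP, with intervals that include 0, and Rpl3l at -0.054 and -0.038. The lowest HAL reading of Rpl3l, -0.44, can belong a whole unit higher, which would raise its HAL difference. The second probe of Rpl3 was at 0.078 in HAL and 0.040 in HEP, the same sign as the 0.047 and 0.086 of its probe at 10 or above. The median difference of all 10009 probes was 0.030 in HAL and 0.014 in HEP.

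Genes that work with the ribosome were few among the probes read, and 0 of their 9 probes passed in any comparison. Rack1, a scaffold protein of the small subunit that the naming rule leaves out, was at -0.086 in HAL and -0.054 in HEP. Eef2, which moves the ribosome along messenger RNA, was at -0.15 in HAL (95% interval -0.29 to -0.0086, adjusted p = 0.215) and 0.014 in HEP. The 2 probes of Eef1a1, which delivers transfer RNA, were at 0.025 and 0.011 in HAL and at 0.086 and 0.089 in HEP. Of 4 initiation factors read, Eif1ax had the lowest difference in HAL, -0.12, and Rheb, which activates mTOR, was at -0.054.

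Levels of the other ribosome lists are given as a description beside the 58.5% of the cytosolic ribosomal proteins. Only 1 of 97 probes of mitochondrial ribosomal proteins and 2 of 47 of ribosome biogenesis factors lay there, and 0 of them could be read for differences. Of elongation factors 5 of 10 probes did, of initiation factors 9 of 50, of other TOP messenger RNAs 8 of 14, and of genes that control ribosomal protein translation 2 of 26. Of the ribosomal genes outside the naming rule (Rplp0, Rpsa and Rack1) 4 of 5 probes did.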

How the data were processed

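RNA of 24 samples was hybridised to 1 Affymetrix array each. RMA made the values, per the submitters' processing notes (version: not given in the sources used here), and per the labels single-stranded DNA was labelled with a whole-transcript kit, although the probe identifiers are those of a 3′ array. The deposited table, as provided here, holds other values than log2 signals: whole numbers taken as their decimals, 9 below 10 and 8 from 10 on, with zeros at either end lost. Of the 432 member cells read 23.4% were shorter than 8 digits, and each was given the zeros that brought it nearest its probe's mean position. limma 3.58.1 in R 4.3.3 (lmFit, eBayes) was fitted over all 24 arrays with no covariate, with Benjamini-Hochberg adjustment over all probes tested. Python 3.11.15 with numpy 2.4.6 read the digits, and reading and fit were tested on simulated data. The members, the lists and the tests were chosen with earlier results of these data known. By rule the text names members with the largest differences from Sham (up to 8 on each side), those below 10 and those with more than 1 probe. The symbols come from the platform annotation, and 30 probes with several symbols, the first of this form, were left out. Sample numbers were not used to pair the arrays in the main fit. Alternatives covered clustering, short cells, array centring, array weights, 2 groups alone, a replicate block, all probes, and leaving out arrays.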

Additional observations from a re-analysis of the deposited data

Results flagged for a closer look

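In 57 groups of 8 readings (18 members and their array median, in 3 groups), 4 had an extreme array set apart from the other 7 by more than the 95% critical value of Dixon's test, which chance gives in about 1 of 20 groups. Rpl27 read -0.50 on HAL array 5, where the next reading was -0.14 and the array's member median was 0.037, and this reading lies at the limit where it can belong a unit higher. Rpl35 read 0.27 on the same array, with the next at 0.030. Rpl18 read -0.21 on HEP array 2, the array on which 17 of 18 members lay below their mean. Rpl23 read 0.23 on Sham array 7, on which all 18 lay above.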

How the results depend on the processing

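The count of members that passed was 0 in HAL against Sham and in HEP against Sham in every setting run. In HAL against HEP it was 0 except with array weights, where it was 1 (Rpl13a). Leaving out 1 array at a time gave 0 to 0 members in each comparison. Median member differences then ran from -0.023 to 0.038 in HAL, from -0.0053 to 0.052 in HEP, and from -0.034 to 0.00019 in HAL against HEP. The median in HAL was -0.0088 with no limit on clustering, -0.0035 with array weights and -0.011 without the array of lowest median in each group, a setting chosen after the data were seen, against 0.0054 with the main settings, so it has no stable sign. In HAL against HEP, where it was -0.021, it was 0.0049 with short cells missing and 0.0010 with arrays centred.

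The counts over all probes depended on the processing, and the cause was not tested. In HAL 28 passed (8 higher, 20 lower). The count was 1 at a resultant length of 0.75 (151 probes tested), 170 with clustering within groups, 6 with short cells missing, 15 with arrays centred (9 higher, 6 lower), 9 with the 2 groups alone, 0 over all probes by decimals, 16 without the arrays of lowest median, and 4 to 39 without 1 array (4 without Sham array 4). In HEP 0 passed. The count was 10 with no limit on clustering, 116 within groups, 1 with short cells missing, 14 with arrays centred, 34 with array weights and 0 to 20 without 1 array (20 without HEP array 8). In HAL against HEP 1 passed. The count was 27 within groups, 2 with arrays centred, 10 with array weights and 0 to 2 without 1 array. It was 0 with no limit, with short cells missing, with the 2 groups alone, over all probes and without the arrays of lowest median.

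Arrays of the same number showed no clear shared deviation (median correlation 0.0021 over 24 pairs, -0.18 to 0.31, 9 above 0.1). The median correlation was -0.0045 for pairs of other numbers. An array's own number was the closest in 11 of 48 cases, which is more than the 1 in 8 that chance gives. With the replicate block 28, 0 and 1 probes passed in the 3 comparisons, 0 of them members, and the median member differences were 0.0054, 0.029 and -0.021. Of 1359 single-member results under an alternative, 1358 kept their side of the threshold and 1 did not (Rpl13a with array weights).

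The number of arrays limits the precision, and the 95 percent intervals of the 18 members reach 0.11 to 0.16 log2 units to either side. These intervals take the short cells as placed and each reading in its unit, so errors of reading come on top.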
